A study of Mus musculus with 12 samples.

Results

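Integrins are the cell surface receptors that hold cells to the extracellular matrix, and 7 of their chains, with the matrix protein fibronectin (Fn1) and the adhesion molecule Vcam1, are described here in the mouse yolk sac. The members were taken as a named set of 9 genes, Fn1, Vcam1, Itga4, Itga5, Itgav, Itga3, Itga6, Itgb1 and Itgb5, out of 18193 genes measured, together with all 34 of their probe sets out of 45037. The study asked how loss of Hypb, the gene now called Setd2, changes expression in the yolk sac. Setd2 encodes the histone methyltransferase that trimethylates lysine on histone H3 along transcribed genes.

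Yolk sacs came from Hypb+/+ (wild type) and Hypb-/- (knockout) embryos of mixed 129Sv/C57BL/6 strain of 2 stages, 9.0 days after conception (E9.0) and E10.5. Each Affymetrix Mouse Genome 430 2.0 array was hybridised with RNA from a pool of 4 yolk sacs of one genotype, and each of the 4 groups had 3 arrays, called biological repeats in the design text, for 12 arrays in all. Hypb-/- denotes embryos with both alleles mutated, so no cell type of their yolk sac was spared by design. At E10.5 the knockout embryos are near death, per the series' design text, so the genotype difference at that stage is also a difference between healthy embryos and embryos close to death, and these cannot be told apart here. All values are deposited RMA values on the log2 scale, in which a difference of 1 is a 2-fold change, and levels are compared only within a probe set.

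An integrin is a pair of 1 alpha and 1 beta chain. Itgb1 pairs with Itga5 to make the main fibronectin receptor, with Itga4 to make a receptor for both fibronectin and Vcam1, and with Itga3 or Itga6 to make laminin receptors, while Itgav with Itgb5 binds vitronectin. In the yolk sac, fibronectin and its receptor are known to be needed for the mesoderm and its blood vessels, and Itga4 and Vcam1 are known for the fusion of allantois and chorion.

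The targeted gene was lower on every knockout array. Setd2 fell by 1.29 on the log2 scale at E9.0 (SE 0.13, adjusted p = 0.00207) and by 0.83 at E10.5 (SE 0.13, adjusted p = 0.00294). The tests are limma's, over all 12 arrays, with p adjusted by Benjamini and Hochberg's method over the 18193 genes and a threshold of 0.05. All 11 visceral endoderm markers measured were above the median gene on average in each group. Their list means were 12.2 to 12.5 on single arrays. All 7 neural markers were below the median gene, but not all markers of the other lists for outside tissue were. Among heart muscle markers Actc1 had group means of 6.79 to 9.61. Of 4 trophoblast and decidua markers 2 were below the median gene in each group, and Prl8a2 had group means of 8.52 to 8.96. Whether such tissue was in the pools was not tested. Replicate 3 stood apart at each stage in both genotypes by its hybridisation and labelling controls: at E9.0 the BioC control exceeded BioB by -0.11 to 0.04 there and by 1.41 to 1.51 on the other 4 arrays, and at E10.5 the dap control's 3′ value exceeded its 5′ value by 1.63 to 1.65 there and by 0.87 to 1.18 on the others. Values are therefore also given for replicates 1 and 2 alone, and for replicate 3 as the difference of 1 array from 1 array, without a test. On the replicate 3 arrays at E10.5 BioC exceeded BioB by 1.35 to 1.49, so replicate 3 need not be the same batch at both stages. A stage change in replicate 3 can therefore include a difference between batches.

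Between knockout and wild type, 0 of the 9 genes were called in limma's test at E9.0, where 1.18% of all genes were called, and 0 of 9 at E10.5, where 7.28% were. At an unadjusted p under 0.05 there was 1 gene at each stage, Itga4 at E9.0 and Vcam1 at E10.5, against 11.8% and 20.2% of all genes. The log2 differences ran from -0.20 to 0.61 at E9.0, with a median of 0.15 against -0.01 for all genes, and from -0.18 to 0.62 at E10.5, with a median of 0.02 against -0.01. The test of whether the knockout effect differed between the stages called 0 of 9 genes, where 0.187% of all genes were called, and 0 of 9 at an unadjusted p under 0.05, where 8.3% were. Between stages, 1 of the 9 genes was called in the wild type, where 22.2% of all genes were, and 3 of 9 in the knockout, where 23.6% were. The plot of log2 values by array shows all 9 genes.

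**Figure D1:**
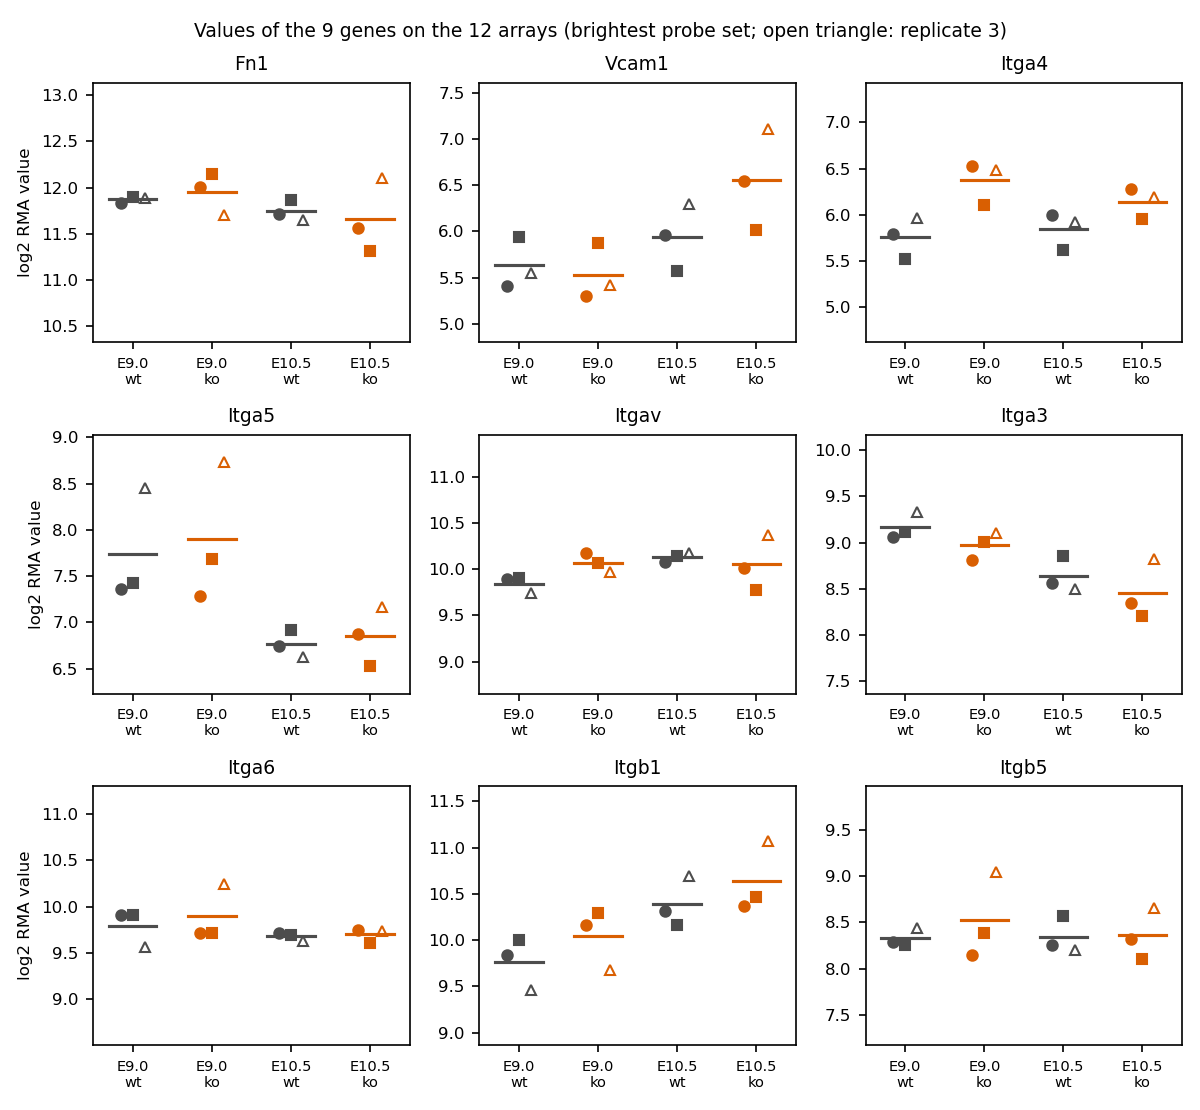
Each panel shows the log2 RMA value (y axis) of 1 gene's brightest probe set on the 12 arrays by stage and genotype (x axis; wt, wild type in grey; ko, knockout in orange), with circles for replicate 1, squares for replicate 2, open triangles for replicate 3, a line at the mean of 3 arrays, and the same span on every y axis. Itga5 fell from E9.0 to E10.5 on every array, Vcam1 was highest on the E10.5 knockout arrays, and replicate 3 was often the array farthest from its group.

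Fibronectin, the fibrous matrix glycoprotein, was bright in all 4 groups and was not called in any comparison. In replicates 1, 2 and 3 its log2 values at E9.0 were 11.83, 11.90 and 11.89 in the wild type and 12.01, 12.15 and 11.70 in the knockout. At E10.5 they were 11.71, 11.87 and 11.65 in the wild type and 11.56, 11.31 and 12.10 in the knockout. The groups overlapped at both stages, and the spread was wider among knockout arrays at E10.5 (SD 0.40, n = 3) than in the other groups (SD 0.04 to 0.23). The knockout minus wild type difference was 0.08 at E9.0 (SE 0.17, 95% interval -0.30 to 0.46) and -0.09 at E10.5 (SE 0.17, 95% interval -0.46 to 0.29). The direction turned between the batches at both stages: replicates 1 and 2 gave 0.215 and -0.355 (adjusted p = 0.469 and 0.109), and replicate 3 gave -0.19 and 0.45.

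From E9.0 to E10.5 the knockout value of Fn1 changed by -0.30 (SE 0.17, adjusted p = 0.254), but its replicates went in opposite directions. Within replicates 1 and 2 it was -0.645 (adjusted p = 0.00640 in limma's test of those arrays), and in replicate 3 it was 0.40 higher at E10.5. Without the third E10.5 knockout array the change was -0.52 and was called (adjusted p = 0.0155). In the wild type it was -0.13 (SE 0.17, adjusted p = 0.659). The second Fn1 probe set gave -0.13 for the knockout and 0.11 for wild type arrays.

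Vcam1, the cell surface ligand of the Itga4 and Itgb1 pair, had its highest values on the knockout arrays at E10.5. Its log2 values in replicates 1, 2 and 3 at E9.0 were 5.41, 5.94 and 5.55 in the wild type and 5.30, 5.88 and 5.42 in the knockout. At E10.5 they were 5.96, 5.57 and 6.30 in the wild type and 6.55, 6.02 and 7.11 in the knockout. The genotypes overlapped at E9.0, and at E10.5 a pair of knockout arrays was above all wild type arrays while the lowest knockout array was below the highest wild type array. The probe set was dim, with a mean of 5.92 over the arrays against 6.52 for the median gene.

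In the knockout, Vcam1 rose from E9.0 to E10.5 by 1.03 on the log2 scale (SE 0.26, 95% interval 0.46 to 1.60), which is 2.04-fold, with an adjusted p of 0.0134 in limma's test and no overlap between the stages. In this comparison 14.4% of all genes rose. It came to 0.695 without replicate 3 (adjusted p = 0.0916) and to 1.69 in replicate 3 alone. Without the first E9.0 knockout array it was 0.91 (adjusted p = 0.0544). In the wild type the change was 0.31 (SE 0.26, adjusted p = 0.460), and the difference between the genotypes was 0.72 (SE 0.37, 95% interval -0.09 to 1.52, adjusted p = 0.659), so the knockout's rise was not shown to be larger than the wild type's.

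The knockout minus wild type difference of Vcam1 at E10.5 was 0.62 (SE 0.26, 95% interval 0.05 to 1.19, 1.53-fold), with an unadjusted p of 0.0363 and an adjusted p of 0.206 in limma's test. Replicates 1 and 2 alone gave 0.52 (adjusted p = 0.271) and replicate 3 gave 0.81, and with replicate 3 as a batch the adjusted p was 0.0757. With the replicate number as a block within each stage, an alternative chosen after seeing the data, the adjusted p was 0.00581. At E9.0 the difference was -0.10 (SE 0.26, adjusted p = 0.949).

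The 3 Vcam1 probe sets did not move alike. Probe set 1448162_at read 5.59, 4.06 and 5.33 in the E10.5 wild type and 6.94, 5.23 and 7.02 in the E10.5 knockout, a difference of 1.40 (SE 0.49, adjusted p = 0.166 over all probe sets), and it rose by 2.13 with stage in the knockout (SE 0.49, adjusted p = 0.0129). Probe set 1451314_a_at changed by 0.08 and 0.25 in the same comparisons (adjusted p = 0.837 and 0.223). Replicate 2 was the lowest of the E10.5 arrays for 1448162_at in both genotypes.

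Markers of other cells changed in the same comparisons as Vcam1. From E9.0 to E10.5 in the knockout, all 8 macrophage markers rose, their list mean going from 5.82 to 6.08 on the E9.0 arrays to 7.46 to 7.67 on the E10.5 arrays. In this comparison 14.4% of all genes rose and 9.17% fell. Of 12 markers of mesenchyme, mesothelium and smooth muscle 6 rose and 1 fell, with list means of 9.41 to 9.54 and 9.84 to 10.4. Of 12 endothelial markers 3 rose, with list means of 7.62 to 7.85 and 7.60 to 8.05, and of 8 heart muscle markers 6 rose, with list means of 4.52 to 4.88 and 5.42 to 6.73. Of 6 platelet markers 4 rose, with list means of 5.94 to 6.04 and 7.15 to 7.49. Wild type yolk sacs, in which Vcam1 was not called, had all 8 macrophage markers and 3 of 6 platelet markers rising too, with 3 mesenchyme markers rising and 1 falling, 1 endothelial marker rising and 5 falling, and 0 heart markers rising and 2 falling. Of all genes 22.2% were called there and 8.86% fell. Between genotypes at E10.5, the macrophage, mesenchyme, endothelial and heart lists had 5 rising and 1 falling, 4 rising, 3 rising and 3 rising members in that order, and the wild type list means were 7.10 to 7.16, 9.61 to 9.82, 7.19 to 7.50 and 4.57 to 4.75. Of all genes 7.28% were called there and 4.12% rose. Other lists went down: the platelet list had 0 rising and 1 falling, with 4 of 6 lower. The erythroid list had 1 falling with 9 of 9 lower, and the visceral endoderm list 1 falling with 9 of 11 lower. Their part in the Vcam1 values was not tested, and in RNA of a whole tissue more cells of a type cannot be told apart from more RNA per cell.

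**Figure D2:**
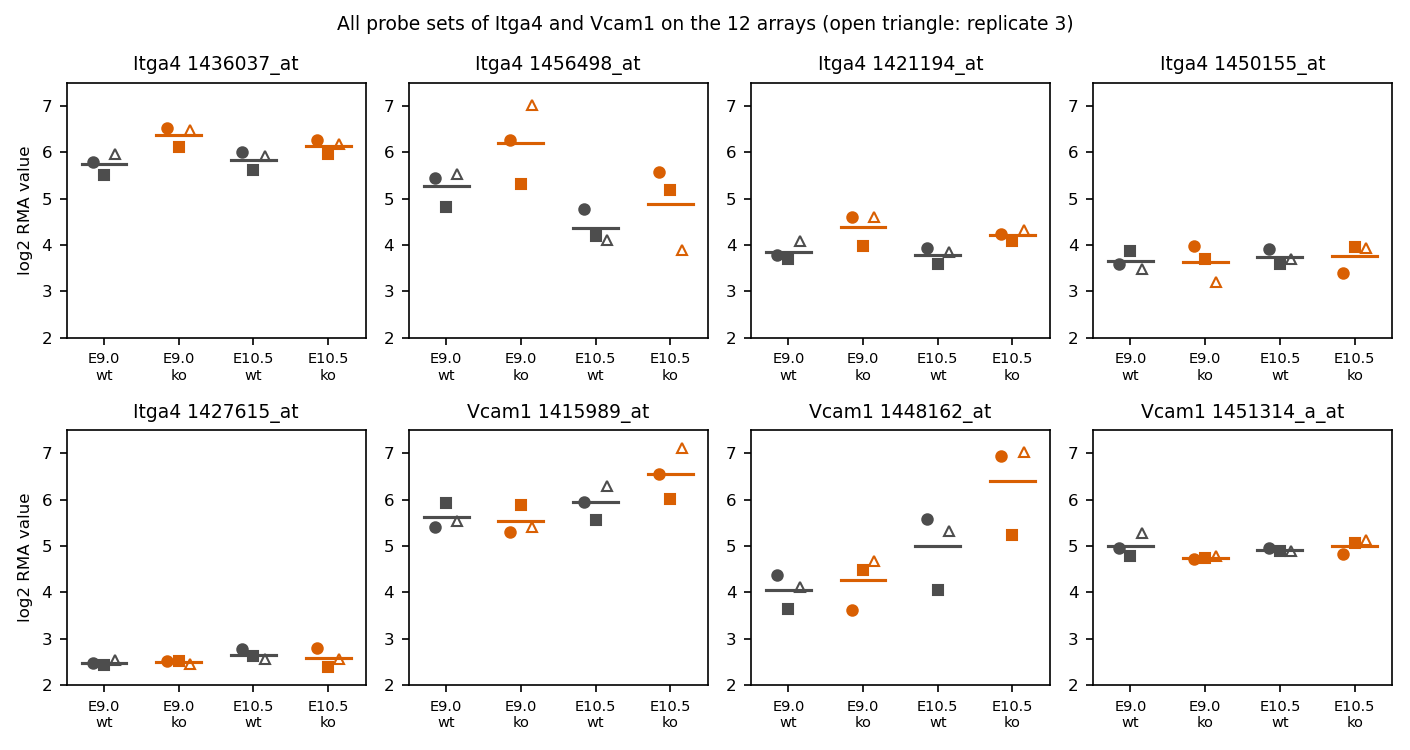
Each panel shows the log2 RMA value (y axis) of 1 probe set on the 12 arrays by stage and genotype (x axis), the 5 probe sets of Itga4 first and the 3 of Vcam1 after them, with symbols as in the plot of the 9 genes and a line at each mean of 3 arrays. The knockout means of Itga4 were higher on its 3 brightest probe sets at both stages, and the rise of Vcam1 in the E10.5 knockout was on 1415989_at and 1448162_at, while 1451314_a_at was nearly flat.

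Itga4, the alpha chain of the receptor for Vcam1 and fibronectin, was the member with the smallest p between genotypes, and it was highest on knockout arrays. At E9.0 its log2 values in replicates 1, 2 and 3 were 5.79, 5.52 and 5.97 in the wild type and 6.53, 6.11 and 6.48 in the knockout. At E10.5 they were 6.00, 5.62 and 5.92 in the wild type and 6.28, 5.96 and 6.19 in the knockout. At E9.0 all 3 knockout arrays were above all 3 wild type arrays, which was so for 2 of the 9 genes (the other was Itgav), against 8.56% of all genes in that direction and 18% in either. At E10.5 the lowest knockout array was just under the highest wild type array, and the arrays of the 2 genotypes overlapped for all 9 genes, against 22.8% of all genes that did not overlap.

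The E9.0 difference of Itga4 was 0.61 (SE 0.15, 95% interval 0.28 to 0.95, 1.53-fold), with an unadjusted p of 0.00167 and an adjusted p of 0.0820 in limma's test, so it was not called. Replicates 1 and 2 alone gave 0.665 (adjusted p = 0.175) and replicate 3 gave 0.51, and with replicate 3 as a batch the adjusted p was 0.0555. The call depended on the replicate number: with it as a block in the fit the adjusted p was 0.0117, and whether the numbers pair the samples could not be decided. At E10.5 the difference was 0.30 (SE 0.15, 95% interval -0.04 to 0.63, adjusted p = 0.317). The 2 stages' effects differed by 0.32 (SE 0.22, adjusted p = 0.786), with the E9.0 effect the larger.

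Of the 5 Itga4 probe sets 4 were higher in the knockout at each stage. At E9.0 the change was 0.93 for 1456498_at (SE 0.45, adjusted p = 0.564 over all probe sets) and 0.55 for 1421194_at (SE 0.17, adjusted p = 0.249), and the remaining pair, which were dim, lay at -0.02 and 0.01. Itga4 too was below the median gene, with a mean of 6.03. With stage the brightest Itga4 probe set changed little, by 0.09 in the wild type (SE 0.15, adjusted p = 0.749) and by -0.23 in the knockout (SE 0.15, adjusted p = 0.326). Probe set 1456498_at changed by -0.90 in the wild type, where the stages did not overlap (SE 0.45, adjusted p = 0.228 over all probe sets). In the knockout it changed by -1.31 (SE 0.45, adjusted p = 0.0745). Of the 5 probe sets 2 were lower at E10.5 in the wild type and 3 in the knockout. Beside the E9.0 difference, 2 of 8 macrophage markers rose and 1 fell in the knockout, with list means of 5.85 to 6.00 on wild type and 5.82 to 6.08 on knockout arrays, and 0 of 12 endothelial and 0 of 12 mesenchyme markers were called by limma, with 1 and 3 at an unadjusted p under 0.05. Of all genes 1.18% were called in that comparison and 11.8% had an unadjusted p under 0.05. The part of these cells in the Itga4 values was not tested.

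Itga5, the alpha chain of the main fibronectin receptor, showed the widest span of group means among the 9 genes, 1.13 on the log2 scale, and the span followed stage. At E9.0 its log2 values in replicates 1, 2 and 3 were 7.36, 7.42 and 8.45 in the wild type and 7.28, 7.68 and 8.73 in the knockout. At E10.5 they were 6.74, 6.92 and 6.63 in the wild type and 6.87, 6.53 and 7.16 in the knockout. Every E10.5 array was below every E9.0 array of either genotype, and replicate 3 was far above the other E9.0 arrays in both genotypes.

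The fall of Itga5 was 1.04 in the knockout (a change of -1.04, SE 0.34, 95% interval -1.79 to -0.30, 2.06-fold, adjusted p = 0.0436 in limma's test). In the wild type the change was -0.98 (SE 0.34, 95% interval -1.72 to -0.24, 1.97-fold), which was just short of the threshold (adjusted p = 0.0588). Within replicates 1 and 2 the changes were smaller and both were called, at -0.78 in the knockout (adjusted p = 0.00989) and -0.56 in the wild type (adjusted p = 0.0419), and in replicate 3 they were -1.57 and -1.82. The knockout call was lost in 4 of 6 fits that each left out 1 array, with the largest adjusted p, 0.168, and a change of -0.63 without the third E9.0 knockout array. All 4 Itga5 probe sets were lower at E10.5 in both genotypes, by -1.04 to -0.003 for the knockout and by -0.98 to -0.12 for the wild type, and the 2 weakest are dim. The brightest, 1423267_s_at, carries the suffix of probe sets that may match more than one transcript.

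The genotypes' values of Itga5 overlapped at each stage. The knockout minus wild type difference was 0.15 at E9.0 (SE 0.34, 95% interval -0.59 to 0.90) and 0.09 at E10.5 (SE 0.34, 95% interval -0.65 to 0.83). Both intervals are wide and hold a difference of 0.5 in either direction. At E9.0 replicates 1 and 2 gave 0.09 and replicate 3 gave 0.28, and at E10.5 the directions were opposite, at -0.13 and 0.53.

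Itga3, the alpha chain of a laminin receptor of epithelia, also fell with stage, and in both genotypes. Its log2 values in replicates 1, 2 and 3 at E9.0 were 9.06, 9.12 and 9.33 in the wild type and 8.81, 9.01 and 9.10 in the knockout. At E10.5 they were 8.57, 8.86 and 8.50 in the wild type and 8.35, 8.21 and 8.82 in the knockout. The stages did not overlap in the wild type, and in the knockout the third E10.5 array just exceeded the first E9.0 array.

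Itga3 fell by 0.53 in the wild type (SE 0.16, 1.44-fold, adjusted p = 0.0294) and by 0.51 in the knockout (SE 0.16, 1.43-fold, adjusted p = 0.0321) in limma's test. It was the 1 member called in the wild type, where 8.86% of all genes fell, and with Itga5 it was 1 of 2 that fell in the knockout, where 9.17% of all genes fell. Within replicates 1 and 2 the changes were -0.375 (adjusted p = 0.0730) and -0.63 (adjusted p = 0.00917), and in replicate 3 they were -0.83 and -0.28. In each genotype the call was lost in 4 of 6 fits that left out 1 array, with adjusted p up to 0.110 in the wild type (change -0.455 without the third E10.5 array) and 0.131 in the knockout (change -0.39 without the second E10.5 array). All 3 Itga3 probe sets were lower at E10.5 in both genotypes. The knockout minus wild type difference was -0.20 at E9.0 (SE 0.16, 95% interval -0.54 to 0.14) and -0.18 at E10.5 (SE 0.16, 95% interval -0.52 to 0.16), and at E10.5 it was -0.435 within replicates 1 and 2 (adjusted p = 0.0755) against 0.32 in replicate 3.

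Other cell markers moved with stage beside Itga5 and Itga3. Of all genes 22.2% were called and 8.86% fell in the wild type, and 23.6% were called and 9.17% fell in the knockout. In the wild type, 1 of 12 endothelial markers rose and 5 fell, with list means of 7.52 to 7.72 at E9.0 and 7.19 to 7.50 at E10.5, and 2 of 10 parietal endoderm markers fell, with list means of 8.84 to 9.51 and 8.32 to 8.63. In the knockout, 1 of 11 visceral endoderm markers rose and 4 fell, with list means of 12.3 to 12.5 and 12.2 to 12.4, and 4 of 9 erythroid markers fell, with list means of 10.7 to 10.9 and 9.76 to 10.6. Of the endothelial markers 3 rose and 0 fell in the knockout (list means 7.62 to 7.85 and 7.60 to 8.05). Of the parietal endoderm markers 1 rose and 0 fell there. In each genotype 9 of 10 were lower at E10.5, with medians of -0.88 in the wild type and -0.65 in the knockout. The knockout list means of these markers were spread widely at E9.0, at 8.83 to 10.55, and were 8.92 to 9 at E10.5. Wild type arrays had 2 visceral endoderm markers rising and 1 falling, and 1 erythroid marker falling and 0 rising. The part of these cells in the fall of the 2 alpha chains was not tested.

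The sequences just upstream of these 2 alpha chain genes are shown because both genes fell with stage in the knockout. They were taken from a table of RefSeq start regions on the mouse assembly GRCm38.p6, in which 6 of the 9 genes were matched (Itga3, Itga4, Itga5, Itgav, Itgb1 and Itgb5); those of Fn1, Itga6 and Vcam1 were not used here. Both genes lie on the minus strand, and only bases outside the annotated gene are printed, 5′ to 3′, with matches to the GC box GGGCGG, on either strand, in capitals. The first is chr11:95076845-95076964, 120 bases, and the second chr15:103366792-103367041, 250 bases.
Itga3: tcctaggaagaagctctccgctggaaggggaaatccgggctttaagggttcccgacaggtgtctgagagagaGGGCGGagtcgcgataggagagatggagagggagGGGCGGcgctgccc
Itga5: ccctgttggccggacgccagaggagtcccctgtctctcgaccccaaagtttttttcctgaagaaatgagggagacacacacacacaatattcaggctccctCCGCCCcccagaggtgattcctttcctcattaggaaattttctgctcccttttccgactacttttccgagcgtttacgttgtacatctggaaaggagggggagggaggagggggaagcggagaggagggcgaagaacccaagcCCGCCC
Each stretch held 2 GC boxes, against at least 1 in 12.5% of 27025 promoters over 120 bases and in 33% over 250 bases. Those 120 bases were the first of the 250, the part farther from the start. The Itga3 stretch ends at the annotated gene, so the share over 120 bases is not matched to it for distance. The AP-1 letters TGANTCA, the TEAD letters GGAATG and the TATA box letters TATAAA, none of which overlaps the GC box, were searched on both strands and were in neither stretch. Over 250 bases they were in 6.85%, 12.6% and 13% of promoters, and over the same first 120 bases in 3.18%, 6.41% and 6.25%. GC boxes were not particular to the genes that fell: over 250 bases Itga4 held 1, Itgb1 held 1 together with 1 TEAD match, and Itgb5 held 3. These matches describe letters and show no binding.

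Itgav, the alpha chain of the vitronectin receptor, varied little on its brightest probe set. Of its 5 probe sets 4 were higher in the knockout at E9.0, where the dim 1421198_at differed by 0.62 (SE 0.35, adjusted p = 0.650 over all probe sets). At E10.5, 3 were higher and 2 lower, and the dim 1432679_at differed by -0.32 (SE 0.14, adjusted p = 0.298). The values that follow are of the brightest. At E9.0 its log2 values in replicates 1, 2 and 3 were 9.89, 9.90 and 9.74 in the wild type and 10.17, 10.07 and 9.97 in the knockout, so that the groups did not overlap. The difference was 0.23 (SE 0.13, 95% interval -0.06 to 0.51, adjusted p = 0.568 in limma's test). At E10.5 the values were 10.08, 10.14 and 10.17 in the wild type and 10.01, 9.77 and 10.37 in the knockout, which overlapped, with a difference of -0.08 (SE 0.13, adjusted p = 0.815) that was -0.22 within replicates 1 and 2 and 0.20 in replicate 3. In the wild type all 3 E10.5 arrays were above the E9.0 arrays, by 0.29 on average (SE 0.13, adjusted p = 0.149), and in the knockout the change was -0.02 (SE 0.13, adjusted p = 0.940).

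Itga6, the other laminin receptor chain, was also near flat on its brightest probe set but not on its other one. Probe set 1422445_at ranged from 9.56 to 10.25 over the 12 arrays, the highest being the third E9.0 knockout array. Its genotype differences were 0.10 at E9.0 (SE 0.14, adjusted p = 0.877), with -0.19 within replicates 1 and 2 and 0.69 in replicate 3, and 0.02 at E10.5 (SE 0.14, adjusted p = 0.962). With stage it changed by -0.11 in the wild type (SE 0.14, adjusted p = 0.641) and -0.20 in the knockout (SE 0.14, adjusted p = 0.373). Probe set 1422444_at fell by 0.84 with stage in the wild type (SE 0.23, adjusted p = 0.0301 over all probe sets), and its change in the knockout was -0.51 (SE 0.23, adjusted p = 0.173), so the 2 probe sets of this gene differed.

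Itgb1, the beta chain shared by the receptors for fibronectin, Vcam1 and laminin, was higher at E10.5 than at E9.0 in both genotypes without reaching the threshold. Its log2 values in replicates 1, 2 and 3 at E9.0 were 9.84, 10.00 and 9.46 in the wild type and 10.16, 10.29 and 9.68 in the knockout. At E10.5 they were 10.31, 10.16 and 10.69 in the wild type and 10.37, 10.46 and 11.07 in the knockout. In both genotypes the stages did not overlap, and replicate 3 was the lowest array at E9.0 and the highest at E10.5. Stages did not overlap for 4 of the 9 genes in the wild type (Itgb1 and Itgav higher, Itga3 and Itga5 lower), where 40% of all genes did not, and for 3 of 9 in the knockout (Itgb1 and Vcam1 higher, Itga5 lower), where 34.6% did not.

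The stage change of Itgb1 was 0.62 in the wild type (SE 0.22, 95% interval 0.15 to 1.10, adjusted p = 0.0611 in limma's test) and 0.59 in the knockout (SE 0.22, 95% interval 0.12 to 1.07, adjusted p = 0.0704). It was larger in replicate 3, whose arrays at the 2 stages need not share a batch. There it was 1.23 and 1.39, against 0.315 (adjusted p = 0.0771) and 0.19 (adjusted p = 0.253) within replicates 1 and 2. Of the 6 Itgb1 probe sets, 1427771_x_at, which was dim with a mean of 5.31, rose by 0.62 in the knockout (SE 0.18, adjusted p = 0.0435 over all probe sets). Probe set 1426918_at changed by 0.54 there (SE 0.17, adjusted p = 0.0573). The remaining probe sets, dimmer still, changed by 0.08, -0.14 and -0.02 there. At E10.5, 4 of the 6 were higher and 2 lower in the knockout, and 5 were higher and 1 lower in the wild type. The genotype difference was 0.28 at E9.0 (SE 0.22, 95% interval -0.20 to 0.75, adjusted p = 0.718) and 0.25 at E10.5 (SE 0.22, 95% interval -0.23 to 0.72, adjusted p = 0.614), and the arrays overlapped at both stages.

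Itgb5, the beta chain that pairs with Itgav, ranged from 8.10 to 9.05 over the 12 arrays, the highest being the third E9.0 knockout array. The genotype difference was 0.20 at E9.0 (SE 0.21, 95% interval -0.25 to 0.65, adjusted p = 0.805), with -0.005 within replicates 1 and 2 and 0.61 in replicate 3. At E10.5 it was 0.02 (SE 0.21, 95% interval -0.43 to 0.46, adjusted p = 0.979), with -0.205 and 0.46. The stage changes were 0.01 in the wild type (SE 0.21, adjusted p = 0.973) and -0.17 in the knockout (SE 0.21, adjusted p = 0.618). These values are of the brightest of 4 Itgb5 probe sets. All 4 were higher in the knockout at each stage, by 0.15 to 0.28 at E9.0 and 0.02 to 0.15 at E10.5. With stage 4 were higher in the wild type. In the knockout 3 were higher and 1 lower, with changes from -0.17 to 0.18.

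**Figure D3:**
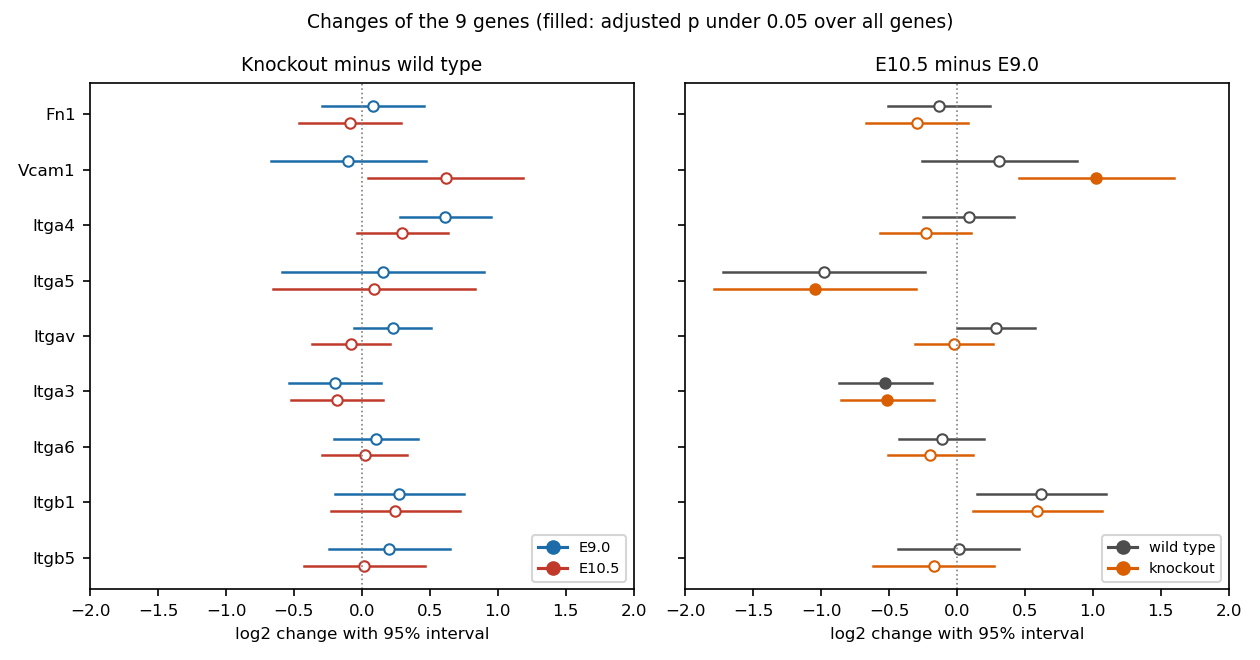
The log2 change (x axis) of each of the 9 genes (y axis) is plotted with its 95% interval from limma's fit, as knockout minus wild type at E9.0 (blue) and E10.5 (red) on the left and as E10.5 minus E9.0 in the wild type (grey) and the knockout (orange) on the right, filled where the adjusted p was under 0.05. No point on the left is filled, and on the right Vcam1 in the knockout, Itga5 in the knockout and Itga3 in both genotypes are.

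Over all 34 probe sets of the 9 genes, 0 were called between genotypes at either stage, where 0.406% and 3.64% of all probe sets were called. For stage, 2 were called in the wild type, both lower (1455158_at of Itga3 and 1422444_at of Itga6), and 3 in the knockout, all higher (1415989_at and 1448162_at of Vcam1 and 1427771_x_at of Itgb1), where 14.4% of all probe sets were called in each genotype. The brightest Itga5 and Itga3 probe sets were no longer called in the knockout over all probe sets (adjusted p = 0.0685 and 0.0513).

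The other integrin genes were followed as 3 lists. Of 17 other integrin chains measured, 1 fell and 0 rose in the knockout at E9.0: Itgb3, the beta chain of the platelet integrin, which also pairs with Itgav, by 0.83 (SE 0.17, adjusted p = 0.0370), where 1.18% of all genes were called. At E10.5, where 7.28% were called, 2 rose and 0 fell: Itga1, a chain of a collagen receptor, by 0.85 (SE 0.15, adjusted p = 0.00597), and Itga9, a chain of a tenascin receptor, by 0.83 (SE 0.18, adjusted p = 0.0160). The list medians were -0.02 and 0.07. Itgb3 is also on the list of 6 platelet markers, of which it was the 1 called at E9.0, and that list's mean was 6.21 to 6.68 on the wild type arrays and 5.94 to 6.04 on the knockout arrays. Itga1 stayed called in all 6 fits that left out 1 array; Itga9 was lost in 3 of them (0.66, adjusted p = 0.0695 without the first knockout array) and Itgb3 in 5 (-0.73, adjusted p = 0.167 without the second wild type array). With stage, 1 of 17 was called in the wild type and 2 of 17 in the knockout, against 22.2% and 23.6% of all genes. Only 4 of the 17 chains were above the median gene, so these shares do not compare genes of like brightness. Itga9 fell by 0.55 in the wild type (SE 0.18, adjusted p = 0.0463), a call lost when each array was centred on its median, after a further quantile normalization, within replicates 1 and 2, and in 5 of 6 fits that left out 1 array (adjusted p up to 0.166). In the knockout Itga1 rose by 0.55 (SE 0.15, adjusted p = 0.0209) and Itgb3 by 0.52 (SE 0.17, adjusted p = 0.0430). Leaving out 1 array lost Itga1 in 2 of 6 fits (adjusted p up to 0.0883) and Itgb3 in 4 of 6 (adjusted p up to 0.153), and 1 of the 2 calls was left after the centring.

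Of 28 measured genes of the adhesion complex inside the cell, 1 rose in the knockout at E9.0, where 1.18% of all genes were called. It was the talin gene Tln2, by 0.46 (SE 0.10, adjusted p = 0.0396), a call lost in 5 of 6 fits that left out 1 array (adjusted p up to 0.167). At E10.5, 5 rose and 0 fell, where 4.12% of all genes rose. They were Fermt2, an integrin activator, by 0.60 (SE 0.09, adjusted p = 0.00188), Csrp1, an actin-linked LIM protein, by 1.12 (SE 0.21, adjusted p = 0.00631), Parva, an actin linker, by 0.74 (SE 0.14, adjusted p = 0.00787), Tln2 by 0.50 (SE 0.10, adjusted p = 0.00793) and the actin crosslinker Flna by 0.53 (SE 0.13, adjusted p = 0.0258). All but Flna stayed called whichever array was left out; Flna was lost in 4 of 6 fits (adjusted p up to 0.117). The list median was 0.10 against -0.01 for all genes, and within replicates 1 and 2 it was -0.02, with 4 genes rising and 2 falling. In the same comparison 4 of 12 mesenchyme and smooth muscle markers rose (Vim, Acta2, Tagln and Wt1). So did 3 of 8 heart muscle, 3 of 12 endothelial and 1 of 10 parietal endoderm markers, and all 12 endothelial markers were higher. Of 8 macrophage markers 5 rose and 1 fell. Erythroid markers (9 of 9) and visceral endoderm markers (9 of 11) were lower, with 1 of each called. The part of these cells in the adhesion complex values was not tested. Of the 28 genes 26 were above the median gene, so the shares of this list and of all genes do not compare genes of like brightness. With stage, 2 rose and 9 fell in the wild type, where 22.2% of all genes were called. In the knockout 4 rose and 7 fell, where 23.6% were. Tln2 fell by 1.04 and by 1.00 (adjusted p = 2.15e-05 and 2.98e-05), and Cd9, a tetraspanin that partners integrins, rose by 1.29 and by 0.88 (adjusted p = 0.000111 and 0.00128).

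Among 20 other integrin ligands measured, 0 were called in the knockout at E9.0 by limma, where 1.18% of all genes were. At an unadjusted p under 0.05 there were 6, against 11.8% of all genes. At E10.5 4 rose and 1 fell, where 7.28% of all genes were called. The matrix-associated proteins Ccn2 and Ccn1 rose by 2.11 (SE 0.26, 4.32-fold, adjusted p = 0.000553) and 1.48 (SE 0.18, 2.78-fold, adjusted p = 0.000436), the laminin chain Lama4 by 1.13 (SE 0.21, adjusted p = 0.00600) and the endothelial adhesion molecule Icam2 by 0.56 (SE 0.15, adjusted p = 0.0370), while Emilin1, an elastic fibre protein, fell by 0.83 (SE 0.21, adjusted p = 0.0309). Ccn1, Ccn2 and Lama4 stayed called in all 6 fits that left out 1 array, Icam2 was lost in 4 (adjusted p up to 0.152) and Emilin1 in 5 (adjusted p up to 0.136). The list median at E10.5 was 0.48 against -0.01 for all genes, and 17 of 20 were higher. Icam2 is also on the endothelial marker list and Postn on the mesenchyme list, whose levels are given beside Vcam1. The parietal endoderm markers, which share Lamb1 and Lama1 with the ligands, had 1 of 10 rising at E10.5, 9 of 10 higher and a median of 0.48, with list means of 8.32 to 8.63 on wild type and 8.92 to 9 on knockout arrays. The part of these cells in the ligands' changes was not tested. With stage, vitronectin (Vtn), the ligand of Itgav with Itgb5, rose by 2.20 in the wild type (SE 0.30, adjusted p = 0.000307) and by 3.02 in the knockout (SE 0.30, adjusted p = 3.40e-05), and periostin (Postn), another ligand of Itgav receptors, by 1.25 (SE 0.17, adjusted p = 0.000298) and 1.96 (SE 0.17, adjusted p = 1.33e-05). In all 5 ligands rose and 3 fell in the wild type, where 22.2% of all genes were called, and 7 rose and 0 fell in the knockout, where 23.6% were; within replicates 1 and 2 these were 6 and 6, and 6 and 1. Of the 20 ligands 16 were above the median gene, so here too the shares do not compare genes of like brightness. The ligands' receptor chains described above, Itgav and Itgb5, were not called in either genotype.

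**Figure D4:**
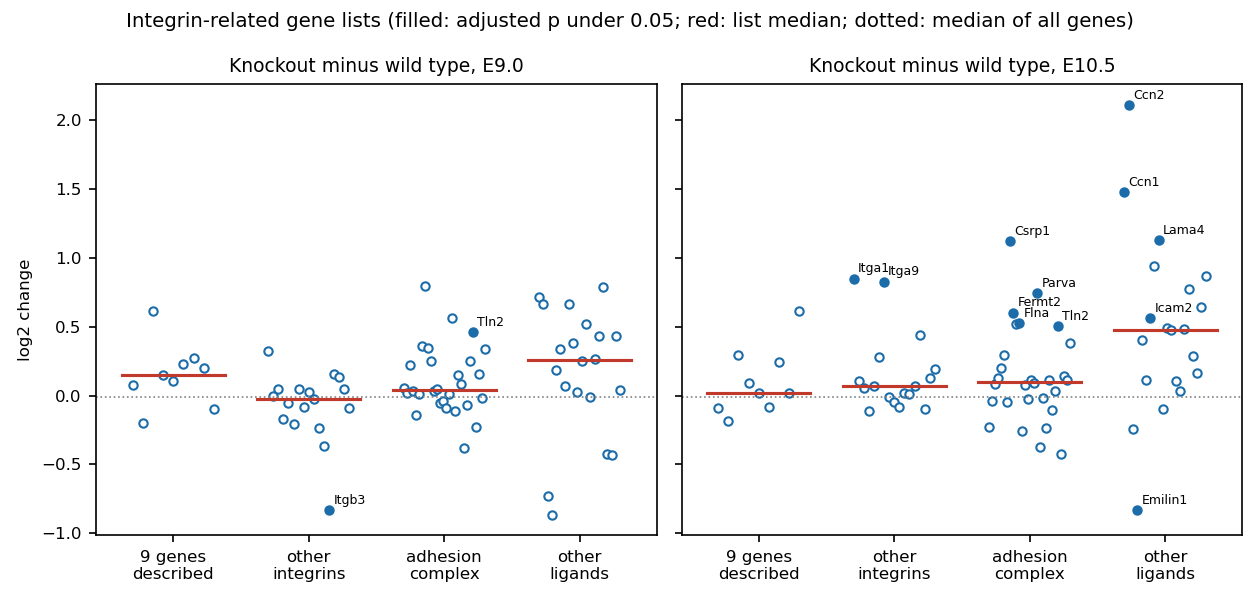
The log2 change of each gene as knockout minus wild type (y axis) is plotted for the 9 genes and the 3 lists (x axis) at E9.0 on the left and E10.5 on the right, with called genes filled and named, the list median in red and the median of all genes dotted. None of the 9 genes is filled at either stage, and at E10.5 the named ligands run from -0.83 (Emilin1) to 2.11 (Ccn2).

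For the 3 members with the widest span of group means, the genes with the most similar profile were found by Pearson's correlation over the 12 arrays among genes brighter than the median gene. These arrays share the 4 groups and the replicate 3 batch of each stage, so the correlations are descriptive. For Itga5 they were Ptpa (0.987), Acbd6 (0.978) and Raver1 (0.976), for Vcam1 the endothelial and mural cell adhesion molecule Mcam (0.940), Tpi1 (0.936) and Atg14 (0.921), and for Itgb1 Laptm4a (0.972), Psat1 (0.956) and Map2k4 (0.953). The group means of Mcam were 6.32 and 6.42 in the wild type and the knockout at E9.0 and 6.65 and 7.34 at E10.5.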

How the data were processed

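Gene expression was measured in 12 yolk sac pools on Affymetrix Mouse Genome 430 2.0 arrays. The deposited values are log2 expression made by the authors with RMA, per the submitters' processing notes (version not given in the sources used here). RMA gives no detection call and compresses the changes of dim probe sets, and the number of arrays limits the precision. The 64 control probe sets were left out, and the brightest probe set by its mean over the arrays stood for each of 18193 genes, named through the platform annotation: 34945 probe sets had 1 symbol, 932 several and 9160 none.

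Groups and replicate numbers came from the sample titles. limma 3.58.1 (R 4.3.3) estimated the mean of each group from the 12 arrays together, with 8 residual and 4.56 prior degrees of freedom. Tests were two-sided, in 5 comparisons, with Benjamini-Hochberg adjustment over genes at 0.05. A second fit over 45037 probe sets gave the values of single probe sets. Tested on simulated data for 18193 genes, the fit recovered 64 of 67 genes changed by 1 on the log2 scale between genotypes at E9.0 and 61 of 67 at E10.5, and of 67 changed by 0.5 it recovered 21 and 22.

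The 9 members and the gene lists were chosen with earlier results of these data known. All 9 members are named, with Setd2, up to 4 called genes of each list per comparison by smallest p or all where 5 or fewer passed, and the 3 genes most like each of the 3 members of widest span. Replicate 3 was treated as a batch within each stage on the evidence of control probe sets, and the labels name no batch. The background correction and scan dates were not analysed here. Alternatives were other scalings, filters, probe set rules, blocks and leaving out each array.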

Additional observations from a re-analysis of the deposited data

Results flagged for a closer look

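Of all 18193 genes 34, or 0.187%, had knockout effects that differed between the stages by limma's interaction test. None of the 9 genes described was among them, and 3 were on the lists of markers of other cells. Ppbp, a platelet chemokine, differed by -1.97 on the log2 scale (adjusted p = 0.0244), Tyrobp, an adaptor of myeloid cells, by 1.09 (adjusted p = 0.0363) and Tnnt2, a troponin of heart muscle, by 2.95 (adjusted p = 0.0436). Ppbp was dim in both genotypes at E9.0, with group means of 3.54 in the wild type and 3.53 in the knockout. At E10.5 they were 8.77 and 6.78. Tnnt2 belongs to the heart list whose levels are given beside Vcam1, and Tyrobp to the macrophage list.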

How the results depend on the processing

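The counts of called members changed with the processing. For knockout minus wild type the count went from 0 to 1 at E9.0 with the replicate number as a block, and likewise with that block within each stage (Itga4, adjusted p = 0.0117 and 0.0181). At E10.5 it went from 0 to 1 with the block within each stage (Vcam1, adjusted p = 0.00581). Whether the numbers pair the samples could not be decided from correlations of same-numbered deviations, because the replicate 3 arrays, set apart in both genotypes, enter them. Over all 18193 genes the correlations of same-numbered deviations were 0.03, 0.23 and 0.24 at E9.0 and 0.26, 0.07 and 0.40 at E10.5, which misses a minimum of 0.1 for every pair at both stages. Over the 9095 genes above the median level they were 0.17, 0.36 and 0.39 at E9.0, where each is over 0.1, and 0.44, 0.08 and 0.54 at E10.5. In both gene sets the same number was the best match from either genotype for replicate 3 at both stages and for replicate 1 at E10.5. For replicates 1 and 2 at E9.0 it was so from only 1 genotype, and for replicate 2 at E10.5 from neither. The labels do not say that a number marks a shared litter or day, and the unblocked fit was kept after both sets and the blocked calls had been seen. For stage in the wild type the 1 call became 3 with genes under the median level left out, 0 with the mean of all probe sets of a gene, 3 with only the arrays compared, 2 with the replicate block and 0 to 1 when each array was left out. In the knockout the 3 calls became 1 with the mean of all probe sets, 1 with all probe sets tested as separate features, 1 with only the arrays compared and 1 to 4 when each array was left out. Within replicates 1 and 2 the counts stayed at 1 and 3, but the genes called changed. Itga5 was called there in place of Itga3 in the wild type, and Fn1, which fell, in place of Vcam1 in the knockout. The cause was not tested. The difference of the knockout effects kept a count of 0 in all alternatives run. No member's called change turned its direction under any alternative run. Genes under the median level, Itga4 and Vcam1 among them, have no value where those are left out. The background correction, a block for slide or scan date, the batch block for the stage comparisons, and the difference of effects with only the arrays compared were not run.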
